A study of Arabidopsis thaliana with 9 samples.

Results

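Wild type Arabidopsis thaliana seedlings of the Col-0 ecotype are described here by the abundance profile of their transcripts. They were the 3 arrays, of 9 in the series, whose genotype label reads wild type, and none of them carries a mutant allele. The other 6 arrays, of amp1-13 and cyp78a5,7 seedlings, were not used. Each wild type array held total RNA of whole seedlings aged 10 days, and the labels call the 3 arrays biological replicates 1, 2 and 3. About 5 seeds per well were grown in 96-well plates in liquid Murashige and Skoog medium with 1% sucrose and 1% DMSO, a solvent, after 2 days at 4 °C in the dark. The plates then stood at 26 °C with 16 h of light and 8 h of dark. The profile therefore belongs to submerged, sugar-fed seedlings with leaves and roots together. In such a whole-seedling extract, fewer cells of a type and less RNA per cell cannot be told apart.

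The RNA was hybridised to the Affymetrix ATH1 array, on which a gene is read by 1 or more probe sets, each a group of short oligonucleotides. The table as deposited gives a MAS5 signal for each probe set, an intensity on a linear scale with a 2%-trimmed mean of 100.0 on every array. Of 22810 probe sets, the 64 controls were left out and 22746 were ranked by the mean signal of the 3 arrays. Exactly 1 gene could be named for 14333 of these (63%), which covered 14171 different genes. A further 503 probe sets had several genes and 7910 had no name, so that many well-known genes are not among the named ones. The table holds no call of presence or absence, and the number of arrays limits the precision.

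A young leaf devotes a large part of its protein synthesis to photosynthesis, and the genes for this are divided between the nucleus and the small genome of the plastid. Roots take up nitrate, sulphate and phosphate, and in Arabidopsis they also store beta-glucosidases that act on defence compounds. Jasmonate and touch responses are rapid, and their transcripts can change within minutes of handling a plant.

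Some markers of both shoot and root were bright in the profile. RCA, the rubisco activase of the leaf mesophyll, gave signals of 2701, 2269 and 1898 on replicates 1, 2 and 3, and the carbonic anhydrase gene CA1 gave 400.5, 443 and 287. PYK10, a beta-glucosidase abundant in roots, gave 4958, 4628 and 5154, and RGF9, a peptide gene of the root tip, 496, 401 and 615. All these genes were above a signal of 100 on each array. The 3 named markers of the root epidermis and root hairs were dimmer, all with means under 100. MYB66 (WER) had a mean of 50.9 and EXPA7 46.5, and EXPA18 was the brightest of them. The list of shoot meristem markers had 5 named members, all with mean signals under 16, from 0.651 for CLV3 to 13.3 for PTL. Most markers of other stages were dim as well, with 8.62 for the seed oil body gene OLEO3, and 0.419 for AT59 and 1.90 for ACT12 of pollen. The floral factor SEP3, with 36.0, lay above the median of 28.8 over all named probe sets. TUA1, an alpha-tubulin listed for pollen, was brighter with 78.8, 72.7 and 83.3. Among 2 named guard cell markers, the factor FMA (FAMA) had a mean of 76.7 and the anion channel gene OZS1 (SLAC1) 36.9. The trichome repressors ETC1 and TRY had 33.3 and 3.54, the vascular and leaf polarity factor PHV had 74.0, and LTP4, the named member of the lipid transfer proteins, had 95.8.

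Replicates 1 and 3 were the most alike and replicate 2 stood somewhat apart. On the log2(signal + 16) scale, Pearson's r over the 22746 probe sets was 0.989 between replicates 1 and 3, 0.978 between 2 and 3, and 0.970 between 1 and 2. Over the probe sets with a mean signal of at least 100, the median absolute log2 difference between arrays was 0.14 for the closest pair and 0.35 for the farthest. Replicate 2 had the highest median signal, 38.9 against 31.1 and 33.6, and the lowest signal at the 99th percentile, 1715 against 2063 and 1997. The ratio of the 5′ to the 3′ control probe sets of actin was 0.308 on replicate 2, against 0.130 on replicate 1 and 0.177 on replicate 3. For the GAPDH controls the ratio was 0.721, 0.718 and 0.770 on replicates 2, 1 and 3. The part of these differences in the results was not tested, and the main counts and the variable genes that rest on replicate 2 are given with and without it. A fold between the highest and the lowest array cannot rise when an array is left out. It was bound to fall where that array was the highest or the lowest, so only the size of such a fall is informative.

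The signal was spread over a wide range and concentrated in few probe sets. The brightest probe set had a mean of 8985, the one at rank 100 had 2947, the one at rank 1000 had 656 and the median was 35.4. The 100 brightest probe sets of an array held 13.9%, 11.5% and 13.0% of its summed signal (12.8% ± 1.21, SD, n = 3), and the 1000 brightest held 48.0% ± 3.20 on average. At the other end, 36.3% of all probe sets had a mean under 16, and 27.3% reached 100. Of the 100 brightest, 73 were among the 100 brightest on every array.

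**Figure D1:**
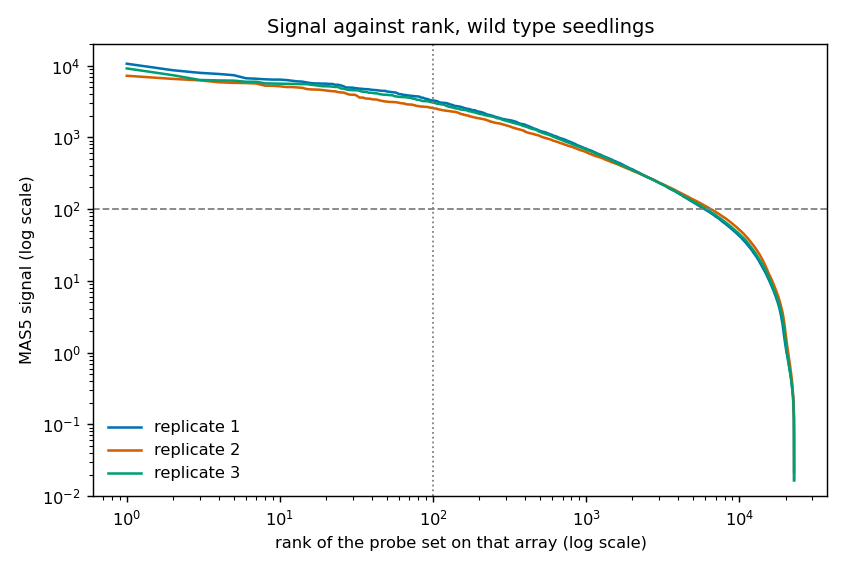
Signal of every probe set against its rank on each of the 3 wild type arrays, both axes logarithmic, with dotted and dashed lines at rank 100 and signal 100. The curve of replicate 2 lies lowest among the brightest 100 and highest among the dim probe sets, where its median of 38.9 exceeds 31.1 and 33.6.

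A rank of signals is not a rank of transcript numbers, since each probe set responds in its own way. Among the 44 named genes with several probe sets of which the brightest reached 100, the brightest exceeded the dimmest by a median of 4.34-fold on the signal + 16 scale, and 36 genes (81.8%) differed by 2-fold or more. Those of their probe sets with a mean of at least 100 differed by a median of only 1.29-fold between the highest and the lowest array. The dimmer probe sets were not in this second median. For SDH2-1, which encodes an iron-sulphur subunit of succinate dehydrogenase, the mean signals of the probe sets were 656 and 0.45. The levels below are therefore those of probe sets, and a low signal does not show that a gene is silent. Without replicate 2 the median fell to 3.13-fold.

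Only 33 of the 100 brightest probe sets had exactly 1 named gene, against 63 without a name and 4 with several genes. Those at ranks 1, 2 and 4 had no name. The brightest of them gave 10619, 7213 and 9123 on replicates 1, 2 and 3, ahead of all others on each array. The named probe sets among the 100 brightest made up 0.23% of all named ones. Of the 25 brightest named, 15 carry a locus code in place of a symbol, and among these the tables used here describe only AT1G54410, so that the roles of the others are not given.

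Plastid genes of energy conversion led the named probe sets. The brightest was atpE, the epsilon subunit of the plastid ATP synthase, with 7920.3, 6227 and 5956 on replicates 1, 2 and 3. It was highest on replicate 1, with the other arrays close to each other, and its mean was 6701 ± 1065 (SD, n = 3). It was followed by psbM, a small subunit of photosystem II, with 5697, 6522 and 6211. The ranges of atpE and psbM overlapped. The beta subunit gene atpB, which is transcribed together with atpE, stood at rank 27 with 4593, 5022 and 4278, and here replicate 2 was the highest. These were the 3 members of the photosynthesis lists and the plastid genome among the 100 brightest.

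Metal binding, redox and sugar metabolism were among the other functions that could be named. MT3, a metallothionein (a cysteine-rich metal-binding protein), gave 7344, 4652 and 5566 at rank 8, and MT1C gave 3560.0, 3125 and 3661 at rank 67. Both metallothioneins were lowest on replicate 2. PRXR1, a secreted class III peroxidase, gave 5552, 5705 and 5413, an almost level signal with a CV of 2.63%, the lowest of the 25. PYK10 at rank 22 had a mean of 4913 ± 266. GAPC2, the cytosolic glyceraldehyde-3-phosphate dehydrogenase of glycolysis, gave 3744, 3447 and 3686. The cytosolic isocitrate dehydrogenase gene cICDH gave 3797, 3159.7 and 3638. All 3 arrays of both enzymes lay within a narrow band. SPX1, a protein that binds the phosphate starvation regulator PHR1 when phosphate is ample, gave 3838, 3109 and 4163, lowest on replicate 2. AT1G54410, annotated as the small dehydrin HIRD11, gave 4239, 3301 and 3915.

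Among the probe sets known by locus code, AT1G78040 gave 6556, 4618 and 5953, AT1G09310 gave 6146, 4479 and 5338 and AT3G48140 gave 6287, 3362 and 5553. All 3 were highest on replicate 1 and lowest on replicate 2. The remaining 11 coded genes of the 25, apart from AT1G54410, had means between 3294 for AT2G23090 and 4044 for AT2G19730. They were AT2G26500, AT1G25275, AT4G35750, AT3G17020, AT2G45180, AT2G41090, AT3G49910, AT1G23130 and AT3G03270 besides these.

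The order within the 25 was loose. In all 24 pairs of neighbours the means differed by less than the larger SD of the pair, and the CV ranged from 2.63% to 40.4% with a median of 16.1%. Replicate 2 was the lowest array for 21 of the 25 and replicate 1 the highest for 17. Over the 100 brightest probe sets, named or not, the counts were 82 and 74. Of the 25, 2 differed by 2-fold or more between arrays, AT2G26500 with 5541, 2534 and 3987 and AT2G23090 with 4453, 1838 and 3592, and after quantile normalization, which gives the arrays 1 common distribution, none did. Without replicate 2 both fell below 2-fold, to 1.39 and 1.24.

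**Figure D2:**
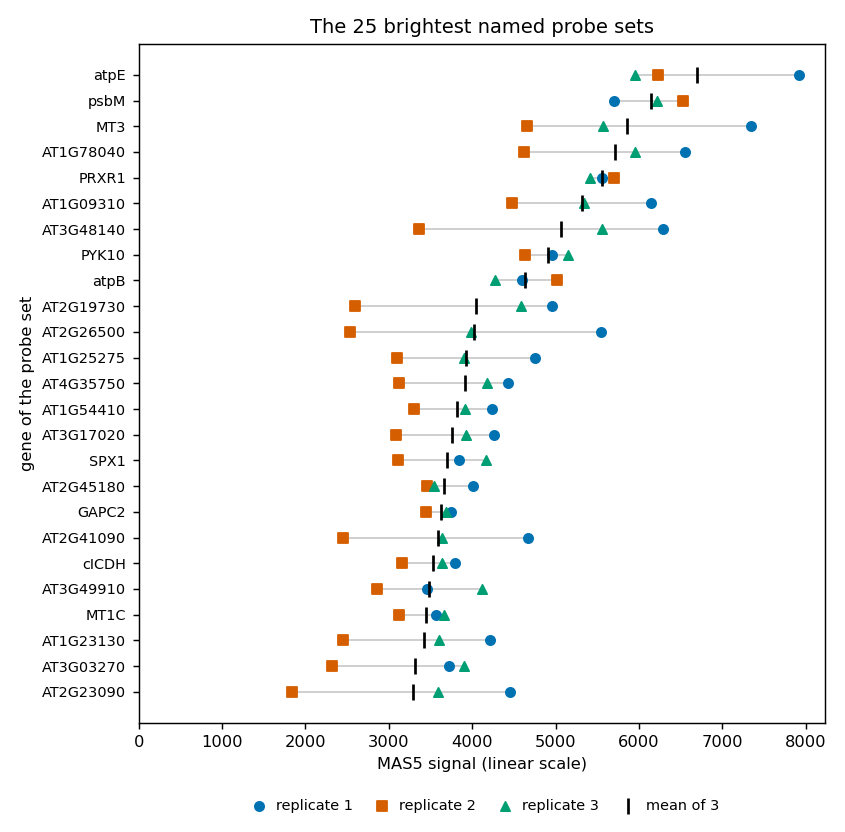
MAS5 signal (linear axis) of the 25 brightest probe sets with exactly 1 gene, in order of the mean (black bar), with 1 symbol for each wild type array and a grey line over their range. The square of replicate 2 is the lowest point for 21 of the 25 genes, and psbM, PRXR1 and atpB are among the exceptions.

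The plastid genome had the widest range of any list. Of its 69 named genes, 3 were among the 100 brightest, 20 among the 1000 brightest (3.22% of all named probe sets were) and 43 at 100 or more, while 8 were under 16. The median was 244, against 28.8 over all 14333 named probe sets, of which 24.1% reached 100 and 40.2% stayed under 16. Below the leading genes, ndhI and ndhC of the NDH complex, which returns electrons to the photosynthetic chain, gave 2246, 3258 and 2634 and 1850.2, 1948 and 1986. The dimmest was ndhH of the same complex, with a mean of 3.39. Within the complex the signals ranged widely, with 927 for ndhA and 5.29 for ndhF. The genes best known from this genome were not its brightest. Signals for psbA, the D1 protein of photosystem II, were 906, 545 and 772, and for rbcL, the large subunit of rubisco, 249, 228 and 190.0. The lowest array was replicate 2 for psbA and replicate 3 for rbcL.

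Genes that are transcribed from a common plastid unit often gave very different signals. In the psaA unit, psaB gave 1050.0, 2254 and 1297 and psaA gave 6.49, 30.6 and 13.0, and rps14 had a mean of 10.7. The proteins of psaA and psaB form the paired core of photosystem I. In the psbB unit, petB of the cytochrome complex had a mean of 1524, against 31.9 for psbB, 133 for psbH and 7.53 for petD. In the psbE unit, which encodes cytochrome b559 and small photosystem II subunits, the means lay closer, with 901 for psbE, 1677 for psbF, 344 for psbL and 1289 for psbJ. In the unit of ATP synthase genes, atpA had 561, atpH 175, atpF 49.5 and atpI 13.6. The RNA polymerase genes rpoB, rpoC1 and rpoC2 had 4.36, 74.3 and 31.4, all under 100. The labelling followed the standard Affymetrix protocol, which starts from poly(A) tails, and the part of this step in the plastid signals was not tested.

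Replicate 2 was the highest array for 30 of the 43 plastid probe sets at 100 or more, against 1264 of 3449 over all named ones at that level. Of the plastid genes at that level, 7 differed by 2-fold or more between arrays, namely psaB, ndhA, atpA, psbH, rpl16, rpl22 and rpl36, all highest on replicate 2. Over all named probe sets at that level, 5.13% differed so. Without replicate 2, their highest array, the folds of the 7 were bound to fall, and they were 1.15 to 1.59. The gene psbH, with 76.2, 203 and 121, reached a mean of 100 only through replicate 2. For the list as a whole, the median was 216 on replicate 1, 306 on replicate 2 and 210.0 on replicate 3. The genes of the mitochondrial genome stood in contrast. Their 18 probe sets for 11 genes had a median of 6.62, 16 of them were under 16 and none reached 100. The brightest were nad4 of respiratory complex I, with 87.7, 62.3 and 64.7, and the cytochrome oxidase gene cox1, with 65.0, 57.4 and 70.6. The dimmest was matR, a maturase gene, with 0.366.

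Nuclear genes of photosynthesis were mostly bright. The lists for light harvesting, both photosystems, electron transport, carbon fixation and photorespiration held 16 named probe sets of 94 genes, of which 14 reached 100 and 8 were among the 1000 brightest. Their median was 810 over all 16 and 1777 over those named by the annotation of the array alone. The photosystem I genes PSAE-1 and PSAN gave 3474, 2267 and 2504 and 2851, 1168 and 2115. PSAN was lowest on replicate 2 and differed by 2.42-fold between arrays, 1.94-fold after quantile normalization and 1.35-fold without replicate 2. The light-harvesting genes LHCB4.1 and LHCB4.2 gave 3069, 2116 and 2232 and 2424, 1585 and 1951, both highest on replicate 1. LHCB2.3 of the same list had only 66.8, 37.4 and 34.1.

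The photosystem II genes PSBW and PSBY had means of 1889 ± 399 and 993 ± 134. ATPC1, the gamma subunit of the plastid ATP synthase, had 1777 ± 276, and PGRL1B of cyclic electron flow 136 ± 16.9. In carbon fixation, RCA led with 2289 ± 402, then came the phosphoribulokinase gene PRK with 627 ± 101.1 and the dimmest was SBPASE, sedoheptulose bisphosphatase, with 352 ± 40.9. All 5 named members of that list reached 100. For photorespiration, HPR, a peroxisomal hydroxypyruvate reductase, gave 668, 505 and 501.

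Genes often taken as references were all bright. After GAPC2, the alpha-tubulin gene TUA6 gave 1395, 1588 and 1508 and the beta-tubulin gene TUB5 gave 946, 831 and 1029. TUB6 was the dimmest of the 5 named members and among the steadiest of all named probe sets, with 712, 714 and 706. UBQ3, a polyubiquitin gene, was less even with 516, 743 and 974, lowest on replicate 1.

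Histone genes had a median of 261 over 10 named probe sets, and 164 over those named by the annotation alone. The H2B genes HTB4 and HTB11 were the brightest, with 931, 565 and 868 and 648, 427 and 616, and the centromeric H3 gene HTR12 the dimmest, with a mean of 18.7. The H2A gene HTA11 differed most between arrays, with 468, 165 and 376, lowest on replicate 2, and 1.23-fold without that array. Of 4 named cell cycle genes, the cyclin CYCD3;1 reached 100.4, 98.4 and 115, the Aurora kinase AUR1 had a mean of 38.2 and the replication factor PRL (MCM7) 34.9.

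Cell wall genes were represented by 24 named expansins and xyloglucan enzymes, the proteins that loosen and reconnect wall polymers during growth. Their median was 136, with 15 at 100 or more and none under 16. XTH24 led with 1124, 1429.6 and 1101, followed by EXPA1 with 719, 1013 and 1130.4, and EXPB1 was the dimmest with 23.9. The members that differed by 2-fold or more were TCH4, described below, and EXPB3, with 84.5, 189.8 and 106. EXPB3 was highest on replicate 2, through which alone its mean reached 100, and 1.21-fold without it. EXPA7 and EXPA18, expansins of root hairs, had means of 46.5 and 95.

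**Figure D3:**
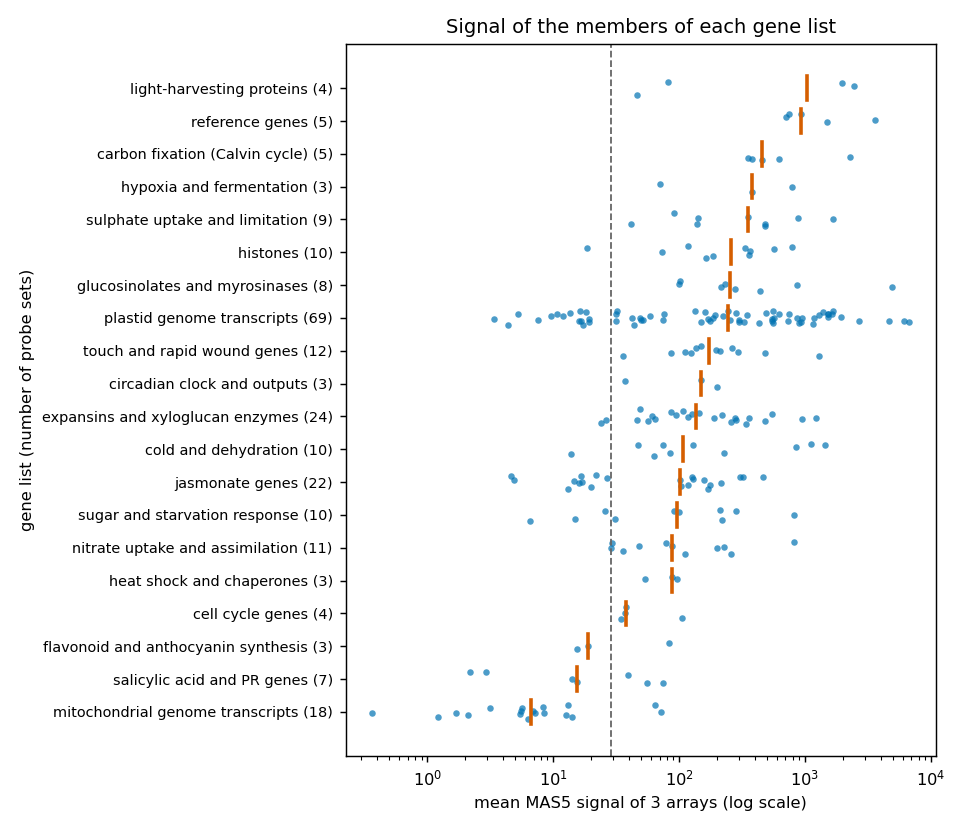
Mean MAS5 signal of 3 wild type arrays (log axis) for each named member of the gene lists with at least 3 named probe sets, 1 point per probe set with random vertical scatter, the list median as a bar and the median of all named probe sets (28.8) as a dashed line. The plastid genome list spans from 3.39 to 6701, and the medians of the salicylic acid and mitochondrial lists lie left of the dashed line.

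Of the phosphate limitation list, only SPX1 and SPX2 of 20 genes were named. Besides SPX1, its relative SPX2 gave 673, 573 and 709. For sulphur, LSU1 gave 1710.2, 1185 and 2115 and LSU2 gave 923, 652 and 1089. Both are small proteins named for their response to low sulphur, and both were lowest on replicate 2. Of the assimilation enzymes, the sulphate reductase gene APR2 had 479 ± 58.4, the sulphite reductase gene SIR 354 ± 49.0 and the sulphate transporter gene SULTR1;2 142 ± 50.5. The dimmest of the 9 named members was LSU4, with 41.2, and 7 of the 9 reached 100. Both phosphate names and those of the LSU genes, APR2 and SULTR1;2 came from the table of genes that the study had selected as changed in a mutant.

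For nitrate, the reductase gene NIA2 gave 796, 945 and 734 and its relative NIA1 gave 104, 145 and 87.0. The regulator LBD38 followed with 257 ± 78.6. The uptake gene NRT2:1, a high-affinity transporter, was the dimmest of 11 with 28.6 ± 4.56. The list median was 88.2, and all its names but that of NRT2.5 came from the same table. With names of the annotation alone, NRT2.5 was left with 29.1. None of its 5 probe sets with a mean of 100 or more was 2-fold variable, against 5.13% of all named ones at that level. With so few probe sets this says little about the list.

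In the sugar and starvation list, the sucrose transporter gene SWEET11 led with 755, 976 and 706, then GPT2, a plastid glucose phosphate transporter that responds to sugar, with 227, 345 and 283. The alpha-amylase gene AMY1 was the dimmest with a mean of 6.52. The list median was 95.7, and 57.9 over the members named by the annotation. Iron storage was represented by the ferritin gene FER3 with 440.3, 401 and 389, and the iron deficiency factor BHLH101 had a mean of 4.74.

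Of the genes of low oxygen and fermentation, only 3 were named. PDC2, a pyruvate decarboxylase of fermentation, gave 737, 804 and 831, and ERF73 (HRE1), a factor induced by hypoxia, gave 395, 339 and 411. AT3G10040 (HRA1), which restrains the hypoxia response, gave 48.3, 100.9 and 63.0. The signals of PDC2 and ERF73 differed by 1.12-fold and 1.2-fold between arrays.

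Cold and dehydration genes divided into bright and dim members. The dehydrins ERD10 and COR47 gave 1670.3, 1407 and 1289.8 and 1206, 1109.9 and 1036, and LEA14 gave 1039.8, 694 and 835. At the other end, the chloroplast protein gene COR15A had a mean of 13.9, and DREB1A (CBF3), a regulator of cold genes, had 47.3. LTI30 (XERO2), another dehydrin, was 2-fold variable with 319.8, 152 and 211, highest on replicate 1 and 1.48-fold without replicate 2. Of 10 named members 5 reached 100. The chaperone list had 3 named members, HSFA7A, DREB2A and AT5G48570 (ROF2), with means from 54.1 to 95.9. Of the clock genes, GI, which gates light input and flowering time, gave 95.4, 247 and 106. It differed by 2.36-fold between arrays, with replicate 2 the highest, and by 1.1-fold without it. COR27 gave 226, 168 and 202 and the pseudo-response regulator PRR5 had a mean of 37.4.

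In defence, the glucosinolate genes were bright and the salicylic acid genes dim. Indole glucosinolates are made from tryptophan, and a later enzyme of the path, CYP83B1, gave 772, 1091 and 720.1, while the entry enzymes CYP79B2 and CYP79B3 gave 94.9, 126 and 76.9 and 95.9, 97.7 and 109. The sulphotransferase gene SOT16 had 439.9 ± 88.6. Of 8 named members, PYK10 included, 7 reached 100. Of the 7 named salicylic acid genes none did, and all 7 names came from the table of genes selected as changed in a mutant. PCC1 led with 75.2 ± 9.49 and EDS5, a transporter needed for salicylic acid, had 55.7 ± 7.52. The pathogenesis-related genes PR1 and PR5 had 14.0 ± 2.19 and 15.6 ± 2.34, and the dimmest was PBS3 with 2.2. Flavonoid genes were dim too, with 18.9 for DFR, a reductase of anthocyanin synthesis, and 15.3 for UF3GT, a glycosyltransferase of the path, though MYB90, a regulator of the path, had 83.9 ± 29.3.

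Jasmonate genes, with 22 named members, spanned from 4.65 for TAT3 to 468 for CORI3. The median was 103, and 12 reached 100. All names but that of PDF1.2 came from the table of genes that the study had selected as changed in a mutant. With names of the annotation alone, PDF1.2 was left with a mean of 118. The synthesis genes were uneven, with 392, 281 and 294 for OPR3, which reduces the precursor OPDA, and 313, 282 and 324 for AOS, which forms the allene oxide. AOC3, an allene oxide cyclase of the same path, had a mean of 104, and the lipoxygenase genes LOX3 and LOX4 had 13.1 and 21.8. The JAZ repressors ranged from 4.92 for JAZ7 to 216 for JAZ6, with JAZ1 at 128 and JAZ10 at 16.1. MYC2, the factor that JAZ proteins bind, gave 163, 109.9 and 108. Inactivation enzymes were low, with 20.0 for CYP94B3 and 16.7 for CYP94C1. Of the 12 at 100 or more, 7 were highest on replicate 1, 3 on replicate 2 and 2 on replicate 3. Over all 3449 named probe sets at that level the counts were 1249, 1264 and 936. PDF1.2, with 6.31, 4.29 and 343, reached that level only through replicate 3. AOC3, with 141, 75.8 and 95.3, did so only through replicate 1, and TIFY10B (JAZ2), with 96.7, 133 and 74.0, only through replicate 2.

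Touch and rapid wound genes had a median of 174 over 12 named members, of which 10 reached 100. All names but those of STZ, EXO and WRKY53 came from the table of genes selected as changed in a mutant. TCH3, a calmodulin-like calcium sensor induced by touch, gave 1754, 962 and 1194, and STZ (ZAT10), a zinc finger repressor, gave 629, 458 and 355. The dimmest was WRKY53 with 18.4, 31.6 and 57.3. WRKY40 was 2-fold variable with 205, 78.8 and 89.4, and it reached a mean of 100 only through replicate 1. Replicate 1 was the highest array for 6 of the 10, among them TCH3, STZ and WRKY40, against 1249 of 3449 over all named probe sets at that level.

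Variation between arrays was modest for most probe sets. Over the 6215 with a mean of at least 100, the median CV was 16.3%, the median SD of log2(signal + 16) was 0.22, and the median fold between the highest and the lowest array was 1.34. Above a mean of 1.83 the median CV fell with level, from 75.6% among probe sets with means between 1.83 and 4.67 to 16.2% among those of 307 or more. Without replicate 2, the median SD on the log2 scale fell to 0.10.

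Of the 6215 probe sets, 289 (4.65%) differed by 2-fold or more between the highest and the lowest array on the signal + 16 scale, and 273 (4.39%) did so after quantile normalization, with 218 in both. Among the named ones the count was 177 (5.13% of 3449), and 21 of these (6.1% of 344) carried a name from the table of genes selected as changed in a mutant. In 115 of the 289 (39.8%) replicate 2 was the array farthest from the others and high, and in 110 (38.1%) it was farthest and low. Over all 6215 probe sets at that level, the shares were 29.3% and 32.3%. Without replicate 2 the count was 24, without replicate 1 it was 81 and without replicate 3 it was 266. A fold can only stay or fall when an array is left out, so a lower count is no result by itself. The genes below were chosen by this spread, so that they are a description and were not tested. Only 5 probe sets differed by 4-fold or more.

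The most variable named genes were 2 defensins that were bright on a single array. PDF1.2b gave 7.98, 0.965 and 499 and PDF1.2 gave 6.31, 4.29 and 343 on replicates 1, 2 and 3. Both exceeded 100 on replicate 3 alone, and on the other arrays both lay below the offset of 16, so that the offset sets the size of their folds. The folds were 30.3 and 17.7 with it, 517 and 80.1 with none, and 8.66 and 5.96 with an offset of 64. Without replicate 3 they fell to 1.41 and 1.1. These small antifungal proteins are known for their induction by jasmonate and ethylene together. The genes are close relatives, and probes of the one may also read the other.

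Replicate 1 was the highest array for 11 of the 15 most variable named genes. It was so for 1249 of all 3449 named probe sets with a mean of at least 100. Of the 289 variable probe sets, named or not, it was farthest from the others and high in 48 (16.6%). MAPKKK14, a kinase of the MAP kinase cascades, gave 281, 67.2 and 57.4. BCB, a blue copper-binding protein, gave 212, 46.9 and 77.0, and TCH4, a xyloglucan endotransglucosylase induced by touch, gave 501, 132 and 203. ORA47, a factor of the AP2/ERF family, gave 206, 51.0 and 68.8. For all 4 the other arrays were closer to each other, and without replicate 1 the folds fell to 1.13, 1.48, 1.48 and 1.27. Of the coded genes, AT2G22880 gave 422, 96.9 and 166, AT4G27654 364, 85.7 and 169, AT5G17350 457, 121 and 155 and AT4G29780 186, 73.3 and 51.3. MAPKKK14, BCB, ORA47 and AT4G29780 were under 100 on both other arrays, so that they reached the minimum mean only through replicate 1. AT5G27760, AT2G38870 and AT3G50900 were also highest on replicate 1, with folds of 3.08, 3.08 and 2.92. In AT5G27760, with 1527, 484 and 994, and AT3G50900, with 595, 193 and 406, replicate 2 was farthest from the others and low. Their folds were 1.53 and 1.45 without replicate 2, and 2.02 for both without replicate 1.

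Only 2 of the 15 were highest on replicate 2. AT4G32020 gave 231, 961 and 362, and rpl36, a ribosomal protein gene of the plastid, gave 138, 437 and 181. Without replicate 2 their folds fell to 1.53 and 1.28. All 15 remained at 2-fold or more after quantile normalization, and 13 of them were still among the 15 most variable.

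**Figure D4:**
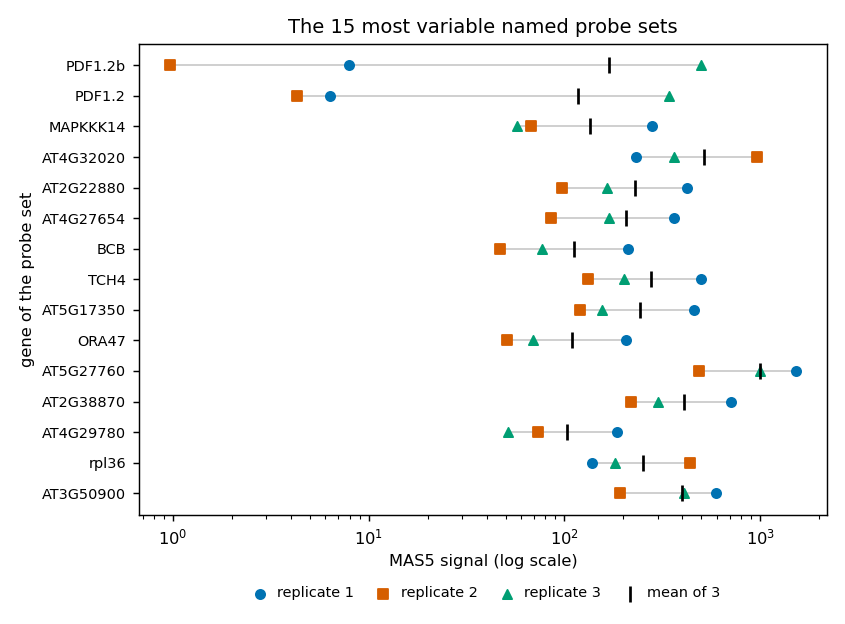
MAS5 signal (log axis) of the 15 named probe sets with the widest range over the wild type arrays, among those with a mean of at least 100, with 1 symbol per array and the mean as a black bar. Both defensins are bright on replicate 3 only, 11 genes are highest on replicate 1, and AT4G32020 and rpl36 are highest on replicate 2.

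The steadiest named genes had nearly the same deposited signal on all arrays. AT1G06640 gave 1182, 1179.7 and 1179.5 and AT2G42390 gave 286, 286 and 285, and both differed by 1.00-fold. They were followed by AT5G47550, AT5G10160, AT5G60460, AT1G63290, TUB6 and AT5G53340, at up to 1.01-fold. After quantile normalization AT1G06640 differed by 1.22-fold, AT5G47550 by 1.17-fold and TUB6 by 1.13-fold, and the others by less than 1.08-fold.

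Differences between arrays followed the length of the gene. The length was the genomic span in RefSeq and was known for 3446 of the 3449 named probe sets at 100 or more. They were divided by length into 5 groups of similar size. In the group with the shortest genes, 105 to 1406 bases, the signal on replicate 2 was below the mean of the other arrays by a median log2 difference of -0.42, and in that with the longest, 2987 to 23544 bases, it was above by 0.31. Replicate 1 went from 0.25 to -0.20 and replicate 3 from 0.15 to -0.12 between the same groups. Spearman's rho across these probe sets, which are not independent replicates, was 0.519 for replicate 2, -0.462 for replicate 1 and -0.357 for replicate 3. Each array also enters the mean that the others are set against, so that these 3 trends are linked and are not separate findings. After quantile normalization it was 0.478, -0.420 and -0.350. Without replicate 2, an alternative chosen after the data were seen, the median log2 difference of replicate 1 from replicate 3 went from 0.07 in the shortest to -0.05 in the longest genes, with a rho of -0.184. The 115 named 2-fold variable probe sets lowest on replicate 2 had a median length of 1236 bases and the 57 highest on it 3279, against 2043 over all. The actin 5′ to 3′ ratio was also highest on replicate 2, but the GAPDH ratio was highest on replicate 3, as given above. The part of either ratio in this pattern was not tested.

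**Figure D5:**
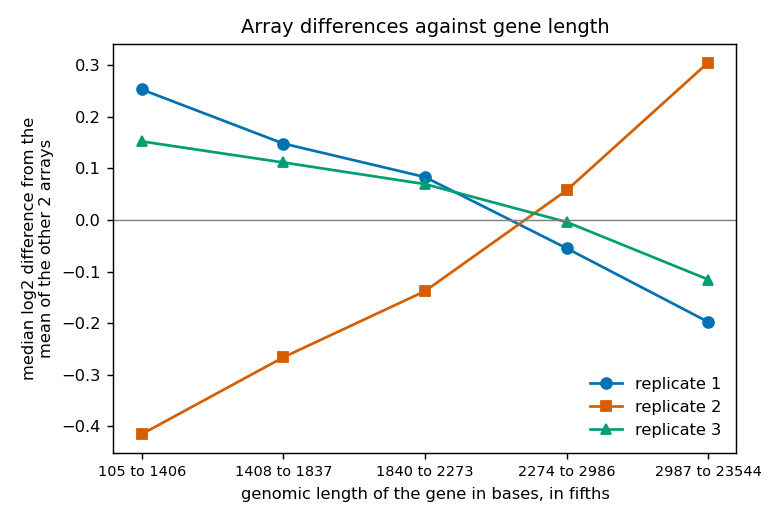
Median log2 difference of each wild type array from the mean of the other 2 arrays, on log2(signal + 16), in 5 groups by genomic gene length for 3446 named probe sets with a mean of at least 100. Replicate 2 rises from -0.42 in the shortest to 0.31 in the longest genes, and replicates 1 and 3 run the opposite way. The curves are linked, since each array enters the mean that the others are set against.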

How the data were processed

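Total RNA of wild type Col-0 seedlings was labelled with biotin and hybridised to ATH1 arrays, 1 for each of 3 biological replicates. The authors deposited MAS5 signal intensities (version not given in the sources used here), a linear intensity for each probe set, scaled per array. The study's own analysis used RMA on the raw arrays, which were not analysed here. The 6 columns of mutant arrays were not used. A table of all 22746 probe sets was ranked by mean signal with pandas 2.3.3, numpy 2.4.6 and scipy 1.17.1 in Python 3.11.15, and figures were drawn with matplotlib 3.10.9. An offset of 16 was added before log2, which understates changes of dim probe sets, and variation was described from a mean signal of 100 upward. No test was made, since there was 1 group, and errors are SDs over 3 arrays. The detection of variable probe sets was tested on simulated data.

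The array's annotation named 13513 probe sets and the study's table of genes changed in the mutants a further 820. The members and lists were chosen with earlier results of these data known. A probe set could be named for 247 of the 642 genes on the lists. Named in the text were the 25 brightest, 15 most variable and 8 steadiest named probe sets, and for each list its 2 brightest, its dimmest and up to 3 variable members. Plastid transcription units and further members were chosen after their values were seen, as were the comparisons with gene length and control ratios. A list of cytosolic ribosomal proteins was dropped because these genes carry only locus codes. The marker names FDH and PEP belong to other genes in RefSeq (TAIR10.1) and were left out. The alternatives were quantile normalization, division by the 75th percentile, other offsets, minima, folds and set sizes, ranking by the median, names of the annotation only, no probe sets that match several transcripts, and leaving out each array. Results for 2 gene families are not reported here.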

Additional observations from a re-analysis of the deposited data

How the results depend on the processing

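The main limits are 3 arrays, signals that depend on the probes, and names for 63% of the probe sets. No paired analysis was possible because the profile has 1 genotype and compares no groups. Among the 50 brightest of each array 33 were shared by all 3, and among the 500 brightest 400. The count of 2-fold variable probe sets, 289 as reported, was 450 with a minimum mean of 50, 170 with 200 and 626 with none. It was 123 with an offset of 64, 1834 at 1.5-fold and 24 at 3-fold. The mean correlation between arrays was 0.937 with no offset, against 0.979.

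Leaving out each array in turn gave counts of 24 to 266 variable probe sets, a median SD of 0.10 to 0.25 on the log2 scale and correlations of 0.970 to 0.989. The fold between probe sets of a gene ranged from 3.13 to 4.39 and the share of signal in the 100 brightest from 12.2% to 13.4%. The photosynthesis genes among the 100 brightest ranged from 3 to 4. Both remaining arrays shared 79 to 88 of their 100 brightest, which cannot be fewer than the 73 shared by all 3. The lowest spread, count and fold came without replicate 2. Of the other values, 94 list medians stayed within the spread of the arrays and 10 moved, 9 of them with names of the annotation only and the jasmonate median, 70.2, without replicate 3. All 60 values of mean signals recomputed for the brightest genes stayed within it. Of the folds of variable genes 96 stayed and 23 moved, all of them without 1 array or, for the defensins, with another offset.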

Other observations

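Further gene families were grouped by their symbols after the values had been seen, from 8 named genes upward, and are given as medians of the mean signal beside 28.8 over all named probe sets. The aldehyde dehydrogenases (ALDH) had a median of 464 over 8 genes, led by ALDH2C4 with 1379 ± 84.2 (SD, n = 3). The autophagy genes (ATG) had 247, led by ATG8F with 1679.7 ± 193, and all 8 reached 100.

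The arabinogalactan proteins (AGP) had a median of 149 over 9 genes and the NAC factors 105 over 8, of which none was under 16. The RALF-like peptides (RALFL) had a median of 106 over 11 genes, with 1843, 765 and 1704 for RALFL33 on replicates 1, 2 and 3, lowest on replicate 2 and 1.08-fold apart without it. The cysteine-rich LCR peptides had a median of 3.06 over 8 genes, yet LCR68 and LCR69 gave 1409 ± 214 and 951 ± 78.6. The WRKY factors had 42.8 over 21 genes, led by WRKY11, and the glucosyltransferases (UGT) 34.0 over 49. The cytochromes P450 (CYP) had 26.0 over 48, with CYP83B1 on top, and the beta-glucosidases with a BGLU symbol 11.1 over 20, led by BGLU44. PYK10 (BGLU23), a brighter beta-glucosidase with a mean of 4913, carries another symbol and was not counted among them.

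Other genes with a symbol among the brightest, also chosen after their values were seen, were those for the glutaredoxin GRXC2 with 3099 ± 728, the vacuolar processing enzyme GAMMA-VPE with 2688 ± 276, the cytosolic triosephosphate isomerase TPI with 2429.8 ± 219 and the cytochrome c CYTC-1 with 2394 ± 553. The jacalin-related lectins JAL33 and JAL34 had 1930.0 ± 192 and 1864 ± 57.1. Further genes that were 2-fold variable included SAG21, a late embryogenesis protein of the mitochondrion, with 1966, 747 and 1309, and COB, a GPI-anchored protein of oriented cell expansion, with 277, 761 and 347. SAG21 was lowest and COB highest on replicate 2, and without it they differed by 1.5-fold and 1.24-fold. QQS, a gene of starch metabolism restricted to Arabidopsis, gave 195, 74.1 and 109, highest on replicate 1 and 1.69-fold apart without replicate 2.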
